A study of Homo sapiens with 36 samples.

Results

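The windows described here are short stretches of transcript that were listed as bound by 5 or more of 9 proteins. eCLIP, in which RNA crosslinked to a protein is immunoprecipitated and sequenced beside the input RNA of the same lysate, had been run in HEK293T cells, an established human embryonic kidney line, with no treatment. For each protein there were 2 immunoprecipitated (IP) and 2 input libraries, 36 libraries in all, and the deposited data were 9 lists, 1 per protein, of windows enriched in IP over input in both replicates. A window was taken when its identifier stood in at least 5 of the 9 lists. This gave 1881 windows of 601384 distinct windows in all. None stood in all 9 lists.

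The 9 lists were for CPSF5, CPSF6, EIF4B, GRB2, LGALS3, MBNL2, RBM10, RBM22 and RNPS1. Proteins were pulled down either by their own antibody or through a V5 tag. Which proteins carried the tag is not given in the sources used here, so tagged and untagged proteins could not be compared. Cells were grown in dishes for each protein, and nothing in the labels says that the 2 replicates came from separate cultures. Lists of enriched windows hold no expression levels, so the markers of the cell line could not be checked.

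CPSF5 (the product of NUDT21) and CPSF6 belong to cleavage factor Im, a complex that binds ahead of poly(A) sites and takes part in the choice of where an mRNA ends. RBM10 and RBM22 act in splicing, RBM22 as a core part of the active spliceosome, and RNPS1 is an SR-like protein that joins the exon junction complex left on spliced exons. MBNL2 is a muscleblind protein that regulates splicing and binds 3′ untranslated regions (UTRs), and EIF4B helps the helicase EIF4A to open 5′UTRs for the ribosome. LGALS3, galectin-3, binds sugars on glycoproteins, and GRB2 is an adaptor of receptor tyrosine kinase signalling. Proteins that bind mature mRNA meet it in coding sequence and UTRs, whereas splicing factors meet precursor RNA at introns and exon borders.

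No genome sequence was used here, so sequence could be read only where a RefSeq table of transcription starts or miRNAs (GRCh38.p14) covers a window, and the coding windows that make up the largest class are not shown. Of the 173 windows in 5′UTRs, 66 covered a RefSeq start, and their first bases show which mRNA 5′ ends were listed. In 17 of the 66 (25.8%), the RNA began with C and an unbroken run of at least 5 C or T, the pyrimidine tract found at the 5′ end of many mRNAs of the translation machinery, and the other 49 did not. The same tract opened 375 of the 6627 5′UTR windows of all lists that cover such a start (5.66%) and 4.07% of the 35116 starts in the table. It was read on the sense strand from the first base only. All 17 follow, with the pyrimidine run in capitals. RPL14, RPL22, RPL24, RPL34, RPS9, FAU and RACK1 encode ribosomal or ribosome-bound proteins, BTF3 and EIF4B act in translation, and UQCRH, COX7C and ATP5F1E in mitochondrial respiration. The other 5 have other roles: TOMM20 in mitochondrial import, UBE2D3 in ubiquitin transfer, ARID1A in chromatin remodelling, MCM2 in replication and CDKN1B in the cell cycle, and UBE2D3 and ARID1A had the longest runs. The windows of RPL10A, RPL15, RPL17 and RPS4X, also ribosomal protein genes, had no such tract at the RefSeq start.
RPL24, chr3:101686677-101686718: CTTTCTTTTCgccatcttttgtctttccgt
RPS9, chr19:54200858-54200909: CTCTTTCTCagtgaccgggtggtttgctta
RPL34, chr4:108620569-108620640: CCTCTTCCggggacgttgtctgcaggtatg
RPL22, chr1:6199574-6199595: CCTTTCTaactccgctgccgcc
RPL14, chr3:40457292-40457360: CTTCTCgcctaacgccgccaac
RACK1, chr5:181243859-181243916: CTCTCTTTCactgcaaggcggcggcaggag
FAU, chr11:65122090-65122177: CTCTTTCTCgactccatcttcgcggtagct
BTF3, chr5:73498408-73498493: CCCTTTagctgccatcttgcgtccccgcgt
EIF4B, chr12:53006431-53006483: CTTTTgcgttctctttccctctcccaac
UQCRH, chr1:46303698-46303766: CTTCTTgatcctgaactgggttaggtgccg
COX7C, chr5:86617941-86617997: CTTTTCagtccttgcgcaccggggaacaag
ATP5F1E, chr20:59032252-59032345: CTTCCTgcggctgaaccgcccggctgagcc
TOMM20, chr1:235128777-235128837: CTTTCTgtgttcctggcccgcggccgtcgg
UBE2D3, chr4:102826772-102826858: CTCTTCCTTTCTagaggccgggaagttaaa
ARID1A, chr1:26696015-26696111: CTCCTTTCTCCggcagcagaaagcggagag
MCM2, chr3:127598410-127598466: CTTTTCgcgcgaaacctggttgttgctgta
CDKN1B, chr12:12717368-12717461: CTTCTTCgtcagcctcccttccaccgccat

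A second group of 5′ ends, shown because it filled most of the 5′UTR windows with 7 or more lists, came from replication-dependent histone genes. The 4 below, on chromosomes 1 and 6, each stood in 7 lists, and none began with the pyrimidine tract, so no base is in capitals.
H2AC20, chr1:149886918-149886974: aatcttattttgttgcgaggttctgagcgt
H2BC12, chr6:27146799-27146855: attacttcccgttttctcgatctgctgctc
H2BC18, chr1:149812324-149812373: agttcggattacttctttaagtctcttttc
H3C2, chr6:26032061-26032099: acagacgtctctgcaggcaagcttttctgt

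Lists differed widely in length, and so did the reads behind them. The number of windows fell steeply with the number of lists. 467133 windows stood in 1 list, 94334 in 2, 29580 in 3, 8456 in 4, 1589 in 5, 260 in 6, 28 in 7 and 4 in 8. The 1881 windows in 5 or more lists were therefore 0.313% of all. Their number depended on which lists were counted: without the RNPS1 list 358 windows remained in at least 5 lists, without CPSF6 377, without EIF4B 408, without MBNL2 558 and without CPSF5 1146, whereas 1795 were left without GRB2, the longest list. When an entry counted only if its larger q-value over replicates was at most 0.05, 298 windows stood in 5 or more lists. Summed IP reads per list ran from 187076 to 13313477 and summed input reads from 65036 to 1548461, over listed windows only.

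**Figure D1:**
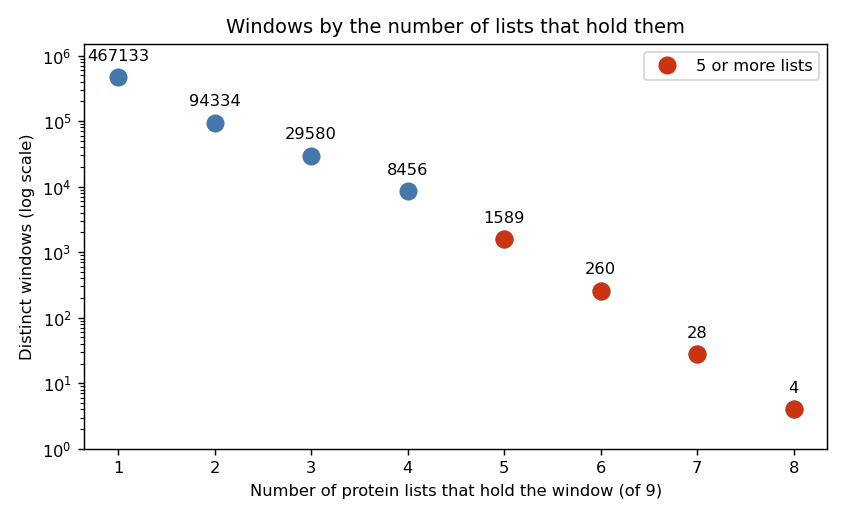
Distinct windows (vertical axis, log scale) by the number of protein lists that hold them (horizontal axis); red points are the windows in 5 or more lists. The count falls from 467133 in 1 list to 1589 in 5 and 4 in 8.

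The windows were chosen by the IP over input calls, so the reads and enrichments below describe them and carry no test. Just inside the threshold, the 1589 windows in 5 lists had a median GC content of 50.9%, 48.6% in coding sequence, 56 IP and 11 input reads per entry and a median log2 enrichment of 2.34 in the lower replicate. Just outside, the 8456 windows in 4 lists had 52.6% GC, 51.7% in coding sequence, 51 IP and 8 input reads and a log2 enrichment of 2.41. The windows on either side of the threshold were thus close to each other in every one of these measures.

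Each list was represented very unevenly. RNPS1 held 1803 of the 1881 windows (95.9%; its list covers 25.4% of all windows), CPSF6 1792 (95.3%, against 25.9%), EIF4B 1754 (93.2%, against 11.4%) and MBNL2 1588 (84.4%, against 7.14%). CPSF5 held 937 (49.8%, against 6.46%), RBM22 768 (40.8%, against 1.44%) and RBM10 610 (32.4%, against 4.75%). LGALS3, with the shortest list (0.167% of all windows), held 365 (19.4%). GRB2 had the longest list, 48.4% of all windows, and held the fewest, 116 (6.17%). Over the windows left when 1 list was dropped, the share with CPSF5 was 73.5% without CPSF6, 64.2% without EIF4B and 54.8% without MBNL2. The share with RBM22 was 66.8% without MBNL2, 60.2% without CPSF5 and 59.8% without EIF4B. That with RBM10 was 62.2% without MBNL2, 54.4% without EIF4B and 50% without RNPS1. The share with LGALS3 was 51.5% without CPSF6, 42.5% without RNPS1, 41.4% without EIF4B and 30.8% without MBNL2, and that with GRB2 lay between 12.7% and 15.9% without any one of these 4. With q-values of at most 0.05, RBM10 had 18.1%. Read the other way, 36.4% of the LGALS3 list and 8.86% of the RBM22 list were windows in 5 or more lists, against 0.0398% of the GRB2 list. In reads, the windows took 34.8% of the IP reads of the LGALS3 list and 25.8% of those of RBM22, against 0.721% for GRB2. Their shares of the input reads of these lists were 36.5%, 26.7% and 1.10% in the same order, each above the IP share.

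By place in the transcript, and with splicing itself not tested, these were mainly windows in exons of mRNA genes. Coding sequence away from start and stop codons held 883 of them (46.9%, 95% exact binomial interval 44.7 to 49.2, which covers counting error only), against 19.9% of all windows. The 3′UTR held 279 (14.8% against 8.45%), the 5′UTR 173 (9.20% against 3.94%), windows over stop codons 122 (6.49% against 1.10%) and over start codons 85 (4.52% against 1.43%). Deep introns, which made up 53.3% of all windows, held 67 (3.56%). Exons of long noncoding RNAs held 69 (3.67% against 1.51%, and 0.759% of that class) and noncoding exons of mRNA genes 68 (0.804% of that class). Splice-site proximal introns held 41 (0.179% of that class), windows next to 3′ splice sites 31 (0.189%), windows next to 5′ splice sites 28 (0.376%), short introns 21 (0.381%), and small RNAs, pri-miRNAs and pseudogenes 14. Without the MBNL2 list the coding share was 29.6%, still the largest class.

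Within a class, the share of windows that reached 5 lists was highest over stop codons, 1.85%. It was 1.03% for small RNAs, pri-miRNAs and pseudogenes and 0.988% for start codons. Noncoding exons of mRNA genes (0.804%), exons of long noncoding RNAs (0.759%), coding sequence (0.736%) and 5′UTRs (0.730%) lay close together. For 3′UTRs it was 0.549% and for deep introns 0.0209%. The make-up moved further with the number of lists. Deep introns fell from 66.4% of windows in 1 list to 9.17% in 2 and 2.9% in 4, and held 3.65% in 5. Coding sequence went from 10.4% in 1 list to 54.6% in 2, its highest share, and then 51.7% in 4. It was 48.6% in 5, 38.5% in 6 and 31.3% in 7 or 8. The large shift from deep intron to coding sequence thus lay between 1 and 2 lists, below the threshold of 5. GRB2 alone gave 285555 of the 467133 windows in 1 list. Stop codon windows rose at every step, from 0.579% in 1 list to 6.29% in 5, 6.54% in 6 and 15.6% in 7 or 8. The 5′UTR share rose from 2.74% in 1 list to 12.1% in 4 and fell to 8.68% in 5. It was 10.8% in 6 and 21.9% in 7 or 8. Windows in 7 or 8 lists number only 32, so the last step of each series rests on few windows.

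**Figure D2:**
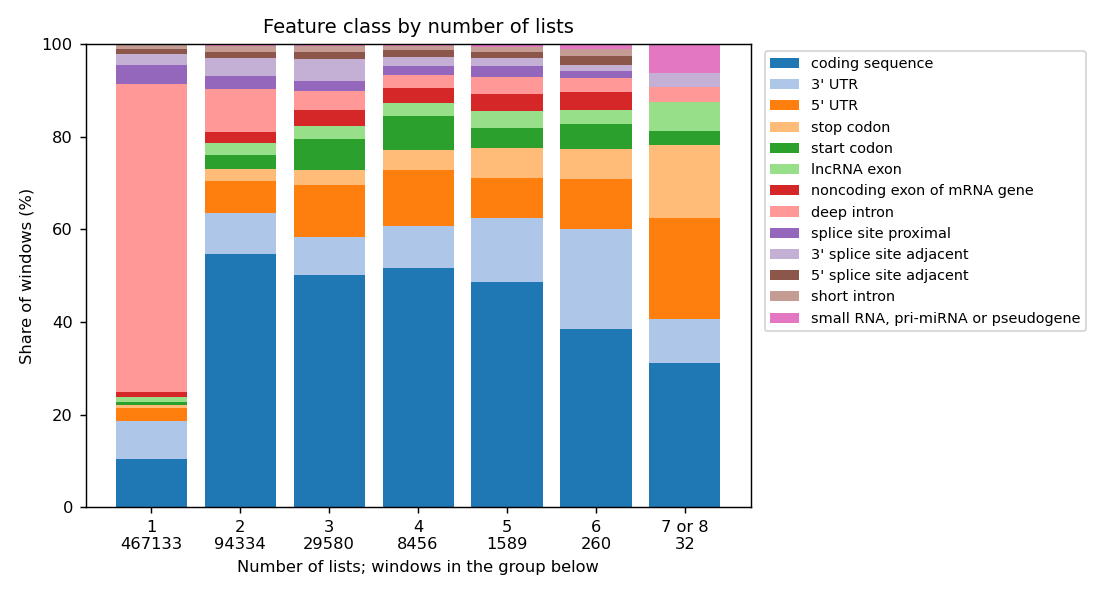
Share of windows in each of 13 feature classes (vertical axis, %, stacked bars) by the number of lists (horizontal axis, with the number of windows in each bar below it). Deep intron makes up 66.4% of the windows in 1 list, 9.17% of those in 2 and 3.65% of those in 5, and coding sequence is the largest class from 2 lists on.

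Base composition differed by class in different directions. Over all 1881 windows the median GC content was 50.5% (quartiles 44.7 and 55.7, range 19.6 to 85.3), against 44.4% over all windows (quartiles 37 and 54). Within 5′UTRs, the windows in 5 or more lists were lower in GC, 54.4% against 69.1% over all 5′UTR windows. In 3′UTRs they were higher, 48% against 39.4%, as in deep introns, 52.5% against 41%. In coding sequence the medians lay close, 50% against 48.9%. Median length was 94 nucleotides against 99 over all windows.

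The reads behind an entry were more numerous than in the lists at large. Per entry, the median was 59 IP reads and 12 input reads, against 31 and 2 over all 788098 entries, while the median log2 enrichment was lower, 2.34 against 2.91 in the lower replicate and 3.10 against 4.06 in the higher. GRB2 gave 291116 of the 788098 entries but 116 of the 9733 of these windows, so the pooled medians also differ in which lists they hold. Enrichment is the authors' log2 odds ratio of IP over input. Input reads per window rise with the abundance of the RNA in the lysate and with the depth of the input library. They moved with the number of lists, and their part in it was not tested. Over steps with at least 20 windows, the median input fell at no step in any list as the number of other lists grew, and it ended higher in all 9. It went from 2 reads with no other list to 15 with 4 and 36 with 6 in CPSF6, from 1 to 7 and 13 in RNPS1, and from 3 to 14 and 44.5 in RBM22.

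Enrichment did not move the same way in all lists. In RBM22 the median of the lower replicate fell from 2.60 with no other list to 1.71 with 4 and 1.62 with 5 others, in CPSF5 from 3.02 to 2.05 and 1.95, and in GRB2 from 3.38 to 2.20 and 2.40. MBNL2 went from 2.54 to 2.47 and 2.72, and RNPS1 from 2.75 to 2.88 and 3.07. EIF4B had 3.06 with none, 2.37 with 4 and 2.56 with 5. With 6 others, on 20 to 28 windows per list, the medians were 3.12 in EIF4B, 3.16 in MBNL2, 3.29 in RNPS1, 2.27 in CPSF6, 2.16 in LGALS3 and 1.61 in RBM22. Set against the rest of the same list, windows in 5 or more lists had a lower median in 8 of 9 lists. The gap was wide in GRB2 (2.25 against 3.38) and small in CPSF6 (2.37 against 2.51) and RNPS1 (2.90 against 2.93). In MBNL2 the median was higher in the lower replicate (2.51 against 2.39) but not in the higher replicate (3.26 against 3.30).

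**Figure D3:**
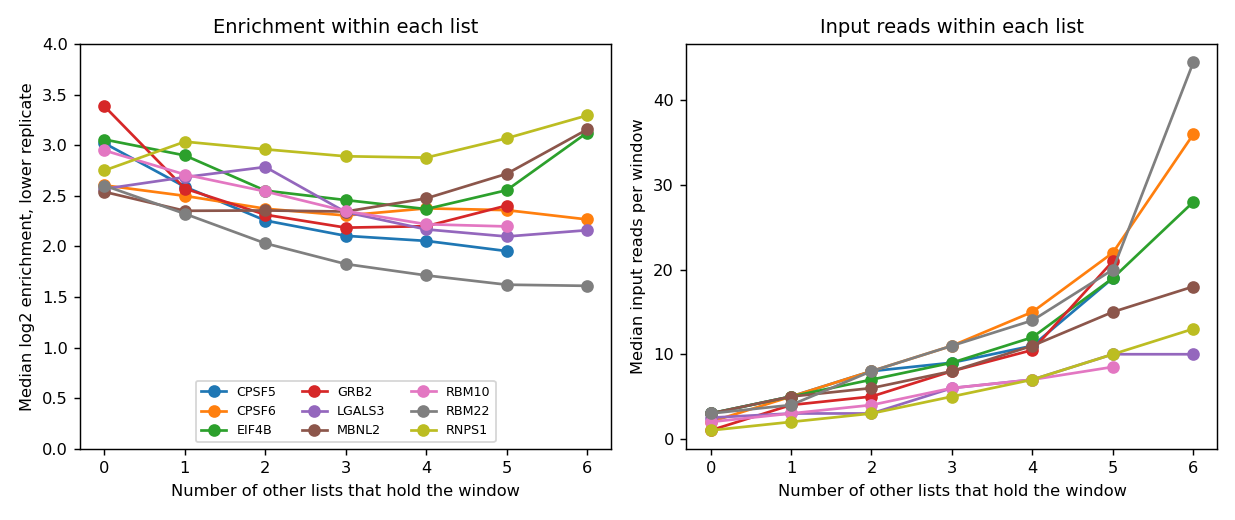
Median log2 enrichment of the lower replicate (left axis) and median input reads (right panel) within each protein's list, by the number of other lists that hold the window; points need 20 windows or more. Input rises in every list, to 44.5 reads in RBM22, while enrichment falls in RBM22 and CPSF5 and ends higher than it starts in MBNL2, RNPS1 and, after a fall, EIF4B.

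Which proteins were combined was narrow. Of 256 possible sets of 5 or more lists, 96 occurred, 32 of them for a single window, and the 5 most frequent took 1243 windows (66.1%). CPSF6, EIF4B, MBNL2 and RNPS1 stood together in 1383 of the 1881 windows (73.5%). They did so in 5865 windows of all. The pair found most often was CPSF6 with RNPS1, in 1730 windows (92.0%), followed by EIF4B with RNPS1 in 1677 and CPSF6 with EIF4B in 1674. Singly, RNPS1 held 95.9% of the 1881 windows, CPSF6 95.3%, EIF4B 93.2% and MBNL2 84.4%. The counts of these pairs and of the 4 together follow largely from those single shares. Pairs with GRB2, the longest list, held at most 91 windows (4.84%, with CPSF6).

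The fifth list of the most frequent sets went with different transcript regions. With CPSF5 added to CPSF6, EIF4B, MBNL2 and RNPS1 there were 512 windows (27.2%) in 399 genes, of which 232 lay in coding sequence, 122 in 3′UTRs, 71 over stop codons, 45 in 5′UTRs and 36 over start codons. With RBM22 in place of CPSF5 there were 315 (16.7%), of which 249 (79.0%) were coding and 11 in 3′UTRs. With RBM10 there were 170 (9.04%), 95 of them coding, and with LGALS3 119 (6.33%), 90 coding and 13 over start codons. CPSF6, EIF4B, RBM10, RBM22 and RNPS1, the frequent set without MBNL2, had 127 windows (6.75%), of which 28 were coding, 25 lay in noncoding exons of mRNA genes and 10 next to 5′ splice sites. Coding sequence was the largest class in all 5 sets, the set with CPSF5 had the most 3′UTR and stop codon windows, and the set with both splicing factors the fewest coding windows.

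**Figure D4:**
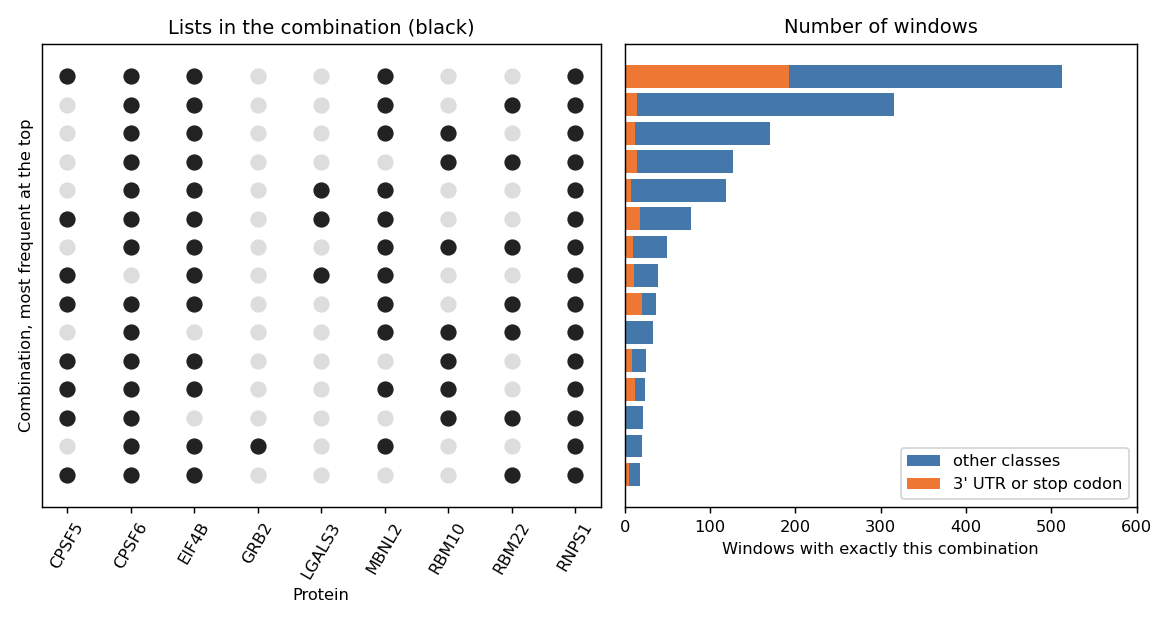
The 15 most frequent exact combinations of lists (black dots, left) and the number of windows with each (bars, right, in windows), with those in 3′UTRs or over stop codons in orange. The top combination holds 512 windows, and its 122 3′UTR and 71 stop codon windows are the longest orange bar.

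The best-enriched window of each of those 5 sets gives an example. For the set with CPSF5 it was in the 3′UTR of BRD3, a bromodomain reader of acetylated histones, at chr9:134032793-134032892. There the lower-replicate log2 enrichment was 1.59 in CPSF5 (34 IP and 15 input reads), 4.17 in CPSF6 (92 and 7), 4.74 in EIF4B (41 and 9), 5.23 in MBNL2 (24 and 5) and 2.70 in RNPS1 (14 and 6). MBNL2 and EIF4B were highest and CPSF5 lowest. For the set with RBM22 it was in the coding sequence of PHF23 at chr17:7237385-7237477, with 4.47 in EIF4B, 4.41 in MBNL2, 4.39 in RNPS1, 2.86 in CPSF6 and 2.11 in RBM22. For the set with LGALS3 it was in the coding sequence of DBN1, which encodes the actin binder drebrin, at chr5:177468108-177468163, with 3.89 in LGALS3 (34 IP reads and 1 input read) and 4.27 in MBNL2 (29 and 1). For the set with RBM10 it was an exon of the noncoding RNA HOTAIRM1 at chr7:27099015-27099102, with 5.24 in MBNL2 and 1.87 in RBM10. For the set without MBNL2 it was the SPIN4 window described further on. The 4 windows named here had 0 to 17 input reads per list.

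Windows that shared a given list also differed by class from those that did not. Windows outside a list had to stand in at least 5 of the remaining lists. The rule thus fixes in part which other proteins each group holds, and these contrasts do not isolate 1 protein. The class make-up of each whole list is not set beside them. Of the 937 windows with CPSF5, 24.9% lay in 3′UTRs and 10.6% over stop codons, against 4.87% and 2.44% of the 944 without it. Of the 116 with GRB2, 26.7% were deep intron, 19.8% exons of long noncoding RNAs and 9.48% coding, against 2.04%, 2.61% and 49.4% of the rest. Of the 610 with RBM10, 9.67% lay in noncoding exons of mRNA genes, 8.52% in deep introns and 30% in coding sequence, against 0.708%, 1.18% and 55.1%. LGALS3 windows were coding in 56.7%, against 44.6%. The 78 windows without RNPS1 were coding in 7.69%, against 48.6% of those with it.

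Taking each window's own highest value, RNPS1 gave it in 613 windows, 34.0% of those in its list. EIF4B did so in 440 (25.1%), MBNL2 in 312 (19.6%), CPSF6 in 242 (13.5%) and RBM10 in 111 (18.2%). CPSF5 gave the highest value in 79 windows (8.43%), LGALS3 in 30 (8.22%), RBM22 in 29 (3.78%) and GRB2 in 25 (21.6%). RBM22 was thus often present and seldom highest. Values were compared across lists as given. Over the rest of each list RBM22 also had the lowest median, 2.16, against 2.93 in RNPS1 and 3.38 in GRB2.

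The 4 windows in 8 lists came from 4 different kinds of RNA. In an exon of a long noncoding RNA under the gene label CAPN15, at chr16:538301-538398 on the plus strand, every protein but GRB2 was listed. The log2 enrichment of the lower replicate was 3.49 in EIF4B (43 IP and 6 input reads), 2.63 in RNPS1 (21 and 3), 2.39 in RBM10 (90 and 11), 2.35 in LGALS3 (24 and 5), 2.22 in CPSF6 (61 and 15), 2.16 in MBNL2 (14 and 7), 1.80 in CPSF5 (34 and 12) and 1.21 in RBM22 (56 and 18). EIF4B was highest and RBM22 lowest, and no list had more than 90 IP reads. CAPN15 encodes a calpain-family protease.

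The 3′UTR of RBM4, a splicing and translation regulator, at chr11:66646215-66646299, was in every list but LGALS3. Its log2 enrichment was 4.28 in MBNL2 (50 IP and 10 input reads), 2.41 or below in the other 7 lists and lowest, 1.51, in GRB2 (50 and 11). Both MBNL2 replicates lay close, 4.28 and 4.30, while the lower of RBM10 was 1.86 (43 and 4). MBNL2 alone therefore stood apart in this window.

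A deep intron window of NISCH, the gene of the imidazoline-receptor candidate nischarin, at chr3:52482114-52482213, was again in every list but LGALS3. GRB2 was highest at 2.29 (215 IP and 29 input reads) and CPSF6 lowest at 1.21 (77 and 29). All 8 values lay between 1.21 and 2.29, the flattest profile of the 4 windows. Input held 5 to 30 reads per list. No annotation other than the tables' own was used to ask what else is transcribed there.

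The fourth lay in the mitochondrial 12S ribosomal RNA, MT-RNR1, at chrM:674-770, in every list but GRB2. It had 113011 IP and 32064 input reads in all. The log2 enrichment was 3.90 in MBNL2 and 3.76 in RNPS1, 2.51 in CPSF6, 2.23 in EIF4B, 1.55 in LGALS3, 1.22 in RBM10, 0.90 in RBM22 and 0.87 in CPSF5. For CPSF5 the summed reads were 8200 in IP and 8229 in input. The values of RBM22 and CPSF5 were thus small at very high read numbers.

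Of the 28 windows in 7 lists, 5 lay in histone 5′UTRs, and EIF4B had high values there. At H2BC18, which encodes a histone H2B, EIF4B reached 7.45 (715 IP and 15 input reads), RNPS1 5.56 (215 and 6), LGALS3 4.23 (47 and 4), MBNL2 4.0 (27 and 11), CPSF6 3.30 (208 and 24), CPSF5 1.87 (17 and 3) and RBM22 1.66 (35 and 19). At H2AC20, an H2A gene, EIF4B had 6.72 and MBNL2 6.16, with CPSF6 lowest at 1.15. At H2BC12, EIF4B had 6.34 on 7905 IP and 186 input reads, RNPS1 3.59 and RBM22 0.76. At H3C2, an H3 gene, EIF4B had 6.33 and MBNL2 4.43, and RBM22 was again lowest at 1.06. In all 4, EIF4B was first.

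**Figure D5:**
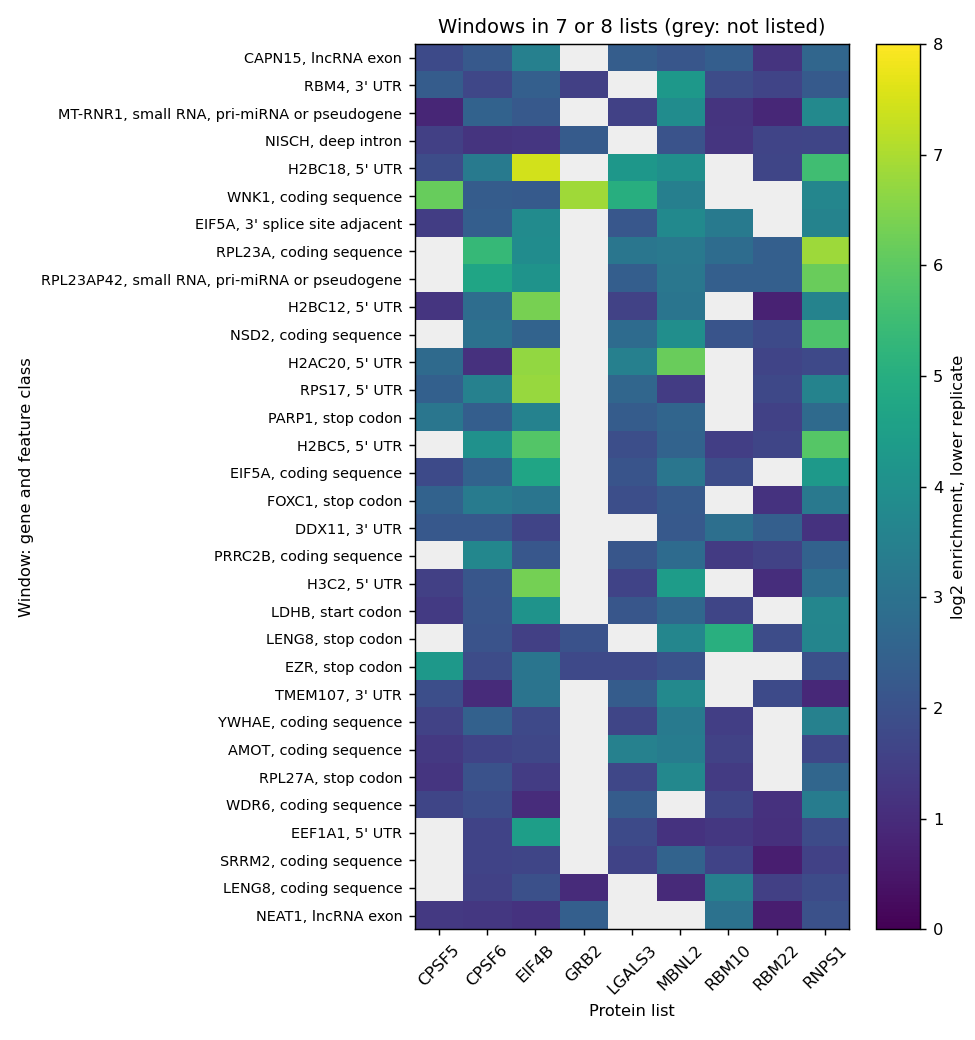
Log2 enrichment of the lower replicate (colour) for the 32 windows in 7 or 8 lists, named by gene and feature class, in each of the 9 protein lists (columns); grey means not listed. The EIF4B column is brightest in the histone 5′UTR windows, from H2BC18 at 7.45 down, and GRB2 is grey in most windows, with a bright cell of 6.87 at WNK1.

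Histone genes as a family held 49 of these windows in 27 gene labels, 13.1% of their 373 windows. All 49 were in the EIF4B list, 39 in LGALS3, 30 in CPSF5, 7 in RBM22 and none in GRB2. 20 lay in 5′UTRs, 13 in coding sequence, 9 over start codons, 6 over stop codons and 1 in a 3′UTR. Histone genes gave 20 of the 173 5′UTR windows in 5 or more lists, against 55 of 23700 5′UTR windows in all, 15 of the 35 in 6 or more and 5 of the 7 in 7 or more. Over the 20 windows, the EIF4B enrichment had a median of 6.43 (lowest 4.24, highest 7.45) with a median of 1443.5 IP and 35 input reads. MBNL2 had a median of 3.48, RNPS1 3.07, CPSF6 2.26, LGALS3 1.99, CPSF5 1.87 and RBM22 1.63. Copies of histone genes are alike in sequence, and how reads that fit several copies were assigned is not given in the sources used here, so single copies are uncertain.

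A different profile stood in WNK1, which encodes a kinase that senses chloride and controls ion transport. Its coding window at chr12:754136-754229 was in 7 lists with GRB2 first, 6.87 (1335 IP and 7 input reads). CPSF5 had 6.15 (2185 and 14), LGALS3 5.03 (184 and 4), RNPS1 3.69 (110 and 4), MBNL2 3.44 (86 and 7), CPSF6 2.32 (44 and 5) and EIF4B 2.27 (49 and 8). GRB2, CPSF5 and LGALS3 were therefore high together, where CPSF6 and EIF4B were low.

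5 windows were high in GRB2, CPSF5 and LGALS3 and, unlike WNK1, in MBNL2 too, and stood outside the CPSF6, EIF4B, RBM10 and RBM22 lists. All 5 were listed for exactly CPSF5, GRB2, LGALS3, MBNL2 and RNPS1. They lay in introns of BTBD2 (chr19:1998553-1998650), ITPR2 (chr12:26441968-26442065), PARN (chr16:14443217-14443315) and PTBP2 (chr1:96776002-96776099), all deep, and TTC3 (chr21:37095150-37095249), proximal to a 3′ splice site. At BTBD2 the IP reads were 11356 in CPSF5, 7879 in GRB2, 1084 in LGALS3, 428 in MBNL2 and 450 in RNPS1, over 0 to 3 input reads in each, and the log2 enrichment was 12.25, 10.96, 7.82, 7.96 and 5.63. BTBD2 held the highest value among all these windows in CPSF5, GRB2, LGALS3 and MBNL2. It is an intron of a gene for a BTB-domain protein.

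At TTC3, a gene for a ubiquitin ligase, CPSF5 had 9.33 (1144 IP and no input reads), GRB2 9.22 (1252 and none), LGALS3 6.05 (40 and none), MBNL2 5.60 (26 and 1) and RNPS1 4.93 (31 and 2). At ITPR2, which encodes an inositol trisphosphate receptor, CPSF5 had 7.99 (474 and none), GRB2 7.26 (243 and none), LGALS3 6.16 (45 and none), MBNL2 6.76 (24 and none) and RNPS1 4.10 (28 and 1). At PARN, a poly(A) ribonuclease, the values were 7.94, 6.83, 5.0, 7.56 and 3.63 in the same order. At PTBP2, a splicing repressor, they were 5.50, 6.18, 6.90, 6.40 and 3.28. RNPS1 was lowest in all 5 windows. Each had 14 or fewer input reads over all its lists, against a median of 62 over the 1881 windows. The windows of BTBD2, ITPR2, PARN and TTC3 touched no other listed window, and that of PTBP2 did. What put these 5 windows into the lists was not tested.

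Introns gave 1 other top value. At HNRNPM, which encodes a splicing regulator of the hnRNP family, a deep intron window (chr19:8450008-8450107) had the highest RBM22 value, 6.36 (881 IP and 3 input reads). EIF4B had 6.30 (248 and 5), RBM10 5.05 (297 and 1), GRB2 3.76 (106 and 6) and CPSF6 3.40 (211 and 6). The replicates of RBM10, 5.05 and 8.51, lay far apart.

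The highest EIF4B and RBM10 values fell on the same coding window of SPIN4, a spindlin-family gene on the X chromosome, at chrX:63350536-63350627. RBM10 had 8.31 (791 IP and no input reads), EIF4B 8.27 (467 and 1), CPSF6 5.88 (235 and 4), RBM22 5.28 (281 and 3) and RNPS1 3.31 (9 and none). For CPSF6 the highest values were in coding windows of NBPF12, 6.79 (514 and 5), and NBPF15, 6.40 (885 and 14). NBPF genes are near-identical copies on chromosome 1, so their assignment is uncertain.

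For RNPS1 the highest value was in the coding sequence of RPL23A, a protein of the large ribosomal subunit, at chr17:28720705-28720797. RNPS1 had 6.83 (4547 IP and 40 input reads), CPSF6 5.37 (3873 and 116), EIF4B 3.90 (618 and 71), MBNL2 3.23 (231 and 60), LGALS3 3.13 (268 and 37), RBM10 2.82 (727 and 68) and RBM22 2.43 (671 and 129). The processed pseudogene RPL23AP42 on chromosome 3 was in the same 7 lists, with 6.17 in RNPS1 (3476 and 30) and 4.71 in CPSF6 (3023 and 85). Gene and copy gave the same order of RNPS1, CPSF6 and EIF4B at the top, and reads of one may be counted at the other. The next RNPS1 value was in EIF4G1, the scaffold of the cap-binding complex, 6.53 on 148 IP reads and 1 input read.

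By gene, the windows were spread thinly. They carried 972 gene labels of 11298, of which 609 (62.7%) held 1 window and 66 held 5 or more, and 1790 windows (95.2%) were in protein-coding genes. Split into symbols, they lay in 1006 genes of 11208 with any window. The 12 genes with most held 196 windows (10.4%). A gene with more listed windows has more that can reach 5 lists, so each count is given beside the gene's total.

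SRRM2, which encodes a large serine- and arginine-rich protein of the spliceosome, led with 28 of its 130 windows. All 28 were in CPSF6, EIF4B, RBM22 and RNPS1, 22 in MBNL2, and none in CPSF5 or GRB2. SPEN, a transcriptional repressor that binds XIST RNA, had 25 of 213, again all 25 in CPSF6, RBM22 and RNPS1, with none in LGALS3 or GRB2. IRS4, an insulin receptor substrate, had 17 of 72, the highest share of the 12 genes (23.6%), all 17 in CPSF6, EIF4B, RBM22 and RNPS1. BCOR, a corepressor, had 18 of 273 with 13 in RBM22, and PRRC2C, an RNA binder of stress granules, 18 of 283 with 15 in RBM22. These 5 were led by coding windows, and RBM22 was in most of them.

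In PRPF8, the central scaffold of the spliceosome, 12 of 167 windows counted, and here LGALS3 held 11 and RBM22 1. AMOT, an angiomotin that links actin and Hippo signalling, was alike: of its 11 windows, of 249, all 11 were in LGALS3 and none in RBM22. In CAPN15, 15 of 190, RBM10 held 14 and CPSF5 13. BRD2, a bromodomain protein, had 14 of 102 spread over 7 classes. CSNK1E, a casein kinase, had 12 of 191, led by 7 in the 3′UTR, and PRRC2B 10 of 563, led by 5 in the 3′UTR. Beside CPSF6, EIF4B, MBNL2 and RNPS1, RBM22 was thus the frequent list in SRRM2, SPEN and IRS4, and LGALS3 in PRPF8 and AMOT.

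These counts per gene moved with the lists and the threshold. At a larger q-value of at most 0.05, SRRM2 had 16 windows, SPEN 11, IRS4 8, XIST 8, CSNK1E 4, PRRC2C 4, BCOR 3, BRD2 3, AMOT 3, CAPN15 2, PRRC2B 1 and PRPF8 0. Without the RBM22 list, SRRM2 had 4, SPEN 5, IRS4 5, PRRC2C 7, BCOR 8, BRD2 7, CSNK1E 6 and XIST 6. Without LGALS3, PRPF8 had 1, AMOT 2 and PRRC2B 6. Without RBM10, CAPN15 had 5, BRD2 8 and CSNK1E 7. CAPN15 had 6, BRD2 9 and XIST 10 without CPSF5, and XIST 9 without GRB2. Over the 12 genes, the counts lay between 0 and 9 without CPSF6, 2 and 7 without EIF4B, 0 and 12 without RNPS1, and 1 and 16 without MBNL2.

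XIST, the noncoding RNA that coats the inactive X chromosome, had 16 of 165 windows and the longest unbroken stretch, 9 windows over 900 nucleotides at chrX:73851824-73852723. That stretch covers the 5′ end of the RNA, whose first bases in RefSeq are shown because the stretch ends there, with no base in capitals.
XIST: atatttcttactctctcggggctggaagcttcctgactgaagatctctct
All 16 windows were in EIF4B and RBM22, 15 in CPSF6, 11 in GRB2, 10 in CPSF5, 7 in RNPS1, 6 in RBM10, 3 in LGALS3 and 2 in MBNL2, so the usual MBNL2 and RNPS1 lists were mostly missing. In the stretch, RBM22 lay between 3.50 and 5.93 in the lower replicate and was the highest list in 8 of the 9 windows. GRB2 was highest in the window farthest from the 5′ end, chrX:73851824-73851923, with 4.26 against 3.50 in RBM22. The window nearest the 5′ end, chrX:73852624-73852723, had 5.10 in RBM22 (9837 IP and 257 input reads), 2.57 in GRB2 (2103 and 296), 2.20 in EIF4B, 2.10 in CPSF6, 2.07 in CPSF5 and 1.79 in RNPS1. The next longest stretches were in coding sequence, 5 windows over 496 nucleotides in IRS4 (chrX:108733068-108733563) and 4 over 391 in BCOR (chrX:40074692-40075082). SRRM2 had 2 more of 4 windows each.

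Most windows did not adjoin another of their kind. They formed 1744 separate stretches, of which 110 held 2 windows or more, and 247 windows (13.1%) touched another window in 5 or more lists. 149 (7.92%) touched no listed window at all, against 21.1% of all windows.

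Among gene families, replication-dependent histones had the highest share of their windows in 5 or more lists (15.5%, 22 of 142, in 12 of the 22 genes with any window), against 0.313% of all windows. Cytosolic ribosomal proteins followed with 75 of 1787 (4.20%) in 46 of 77 genes, 37 coding and 15 in 5′UTRs, with 4 windows each in RPL10A, RPL15, RPL24 and RPS4X. SR proteins, splicing factors with an arginine- and serine-rich domain, had 16 of 545 (2.94%) in 7 of 12 genes, led by SRSF4 with 5. The TRA2, SRRM and SON group had 45 of 1568 (2.87%), of which SRRM2 and SON held 28 and 9. hnRNP proteins had 50 of 2048 (2.44%) in 18 of 26 genes, led by PTBP1 with 6. All these shares lay above that of all windows, as they did in 16 of the 18 families looked at. The share of all windows is a low mark, because deep introns made up 53.3% of them and reached 5 lists in 0.0209%. Coding windows of all genes did so in 0.736%, near the 0.883% of giant mRNAs and the 0.919% of exon junction complex and nonsense-mediated decay genes below. Families were not matched by class.

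HSP70, HSP90 and CCT chaperones had 17 of 707 (2.40%), led by HSPA8 and HSPA9 with 3 each. Translation initiation and elongation factors had 57 of 2687 (2.12%) in 20 of 38 genes, with 7 each in EIF4A1 and EIF5A. Other abundant RNA binders had 72 of 3277 (2.20%), glycolytic enzymes 13 of 723 (1.80%) with 4 in LDHB, cytoskeletal genes 44 of 2508 (1.75%) with 8 each in ACTB and TUBA1B, and core spliceosome proteins 42 of 2777 (1.51%). Exon junction complex and nonsense-mediated decay genes had 10 of 1088 (0.919%), 4 of them in RNPS1 itself, and giant mRNAs 58 of 6566 (0.883%), 25 of them in SPEN. The cleavage and polyadenylation genes, whose products work with CPSF5 and CPSF6, had 2 of 1206 (0.166%), 1 each in CPSF7 and PABPN1. That was below the share of all windows, and 0 of 7 windows of small nuclear and 7S RNAs counted. Many of these mRNAs are abundant, and RNA level was not measured here apart from input reads.

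The transcripts of the 9 proteins themselves had 6 of 499 windows (1.20%). 4 were in RNPS1, 2 of them over start codons and 2 coding, and all 4 in exactly CPSF6, EIF4B, LGALS3, MBNL2 and RNPS1. At chr16:2263192-2263287 the RNPS1 list had 68525 IP and 2404 input reads, against 200 and 20 in CPSF6, 216 and 9 in EIF4B, 553 and 16 in LGALS3 and 656 and 52 in MBNL2. Input there was thus far higher in the RNPS1 experiment than in the other 4, and the log2 enrichment of its own protein, 3.05, was below the 3.89 in LGALS3. The upstream start codon window, chr16:2264573-2264643, had 67238 IP and 3681 input reads and 5.23 in RNPS1, against 6.17 in LGALS3 (506 and 12). LGALS3 was highest in all 4 windows, from 3.89 to 6.17. Why the RNPS1 input was so high was not tested.

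EIF4B mRNA had 1 window, in its 5′UTR with the tract shown above, with 3.25 in EIF4B (32 IP and 4 input reads), 3.15 in RNPS1, 2.60 in CPSF6, 2.04 in RBM22 and 1.38 in GRB2. RBM10 mRNA had 1, coding, with 1.98 in RBM10 (60 and 6) and 3.55 in RNPS1 (105 and 4). The transcripts of CPSF5, CPSF6, GRB2, LGALS3, MBNL2 and RBM22 had none.

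Nuclear and abundant long noncoding RNAs had 9 of 322 windows (2.80%) and snoRNA host genes 11 of 579 (1.90%). NEAT1, the RNA that builds paraspeckles, had 6 of 57 windows, and MALAT1, NORAD and TUG1 1 each. The NEAT1 window in 7 lists, chr11:65423596-65423694, was highest in RBM10, 3.0 (1914 IP and 149 input reads), then GRB2, 2.42 (1435 and 188), and lay at 1.97 or below in the other 5. SNHG1, a host of small nucleolar RNAs, had 6 of its 24 windows, out of 11 for all such hosts together. Its window at chr11:62855786-62855885 covered the RefSeq start, where the 3 opening pyrimidines, in capitals, are fewer than the 5 that counted as a tract.
SNHG1: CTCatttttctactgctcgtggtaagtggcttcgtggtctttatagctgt

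The 5′UTR of DGCR8, the partner of Drosha in cutting miRNA hairpins, had a window in 5 lists at chr22:20085779-20085870 that touched no other listed window. DGCR8 mRNA is itself known to carry a miRNA hairpin in this region, and the window covers the mature miRNA below, from RefSeq, with its seed (bases 2 to 8) in capitals.
hsa-miR-3618, chr22:20085797-20085818: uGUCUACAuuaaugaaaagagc
CPSF6 had 3.68 (198 IP and 11 input reads), CPSF5 3.50 (168 and 16), RNPS1 2.55 (72 and 8), MBNL2 2.13 (66 and 15) and EIF4B 1.35 (45 and 20). The cleavage factor subunits were thus highest. A coding window of DGCR8 at chr22:20086152-20086240 was in 6 lists, with RNPS1 first at 4.10 (406 and 24), CPSF6 at 3.56 (643 and 53) and CPSF5 at 2.65 (168 and 41).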

How the data were processed

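Windows, genes, feature classes and GC fractions were taken as the authors deposited them. Each list gives, per window, whole-number read counts of IP and input that the authors summed over 2 replicates, the lower and higher log2 enrichment (named an odds ratio in the headers, taken here as IP over input) and the larger q-value of the replicates, per the file headers (up to 0.199923); the GC fraction (0 to 1) is the authors' too, here given in percent. The build is hg38, per the submitters' processing notes. The aligner, the window caller, its annotation and the baseline of the log2 ratio were not given in the sources used here.

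Windows were joined over the 9 lists by identifier, and coordinates, GC and gene labels were found equal in all lists that hold one. The authors' 18 feature types were grouped into 13 classes. Coordinates are 1-based. No test was run, because the choice used the calls themselves and the lists give reads summed over replicates. The members and gene lists were chosen with earlier results of these data known. Intervals cover counting error only. If replicates share a culture, the 2 enrichments show technical spread only. The join and count were tested on simulated lists.

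Named windows and genes were the 15 windows in most lists; the 12 genes with most windows; the 2 highest windows of each protein; the 2 leading windows of each class with at least 1% of windows; the best of each of the 5 most frequent sets; the 5 with most IP reads; the 3 longest stretches; and genes of the lists. Windows of the 5-list set with BTBD2, H3C2, CACUL1, the DGCR8 windows, the 5′ ends shown, the U2 pseudogenes and the rest of the mitochondrial genes were singled out after their values were seen. Sequences came from RefSeq tables of GRCh38.p14, read by coordinates. Python 3.11.15, pandas 2.3.3, numpy 2.4.6, scipy 1.17.1 and matplotlib 3.10.9 were used.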

Additional observations from a re-analysis of the deposited data

How the results depend on the processing

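Choosing windows in at least 4 lists gave 10337 windows in 3332 genes, with 50.8% coding, a median GC of 52.1%, CPSF6 with RNPS1 in 88.8% and a median of 9 input reads per entry. At least 6 lists gave 292 windows, 200 genes, 37.7%, 48.5%, 95.2% and 16. Entries with a larger q-value of at most 0.05 gave 298, 200, 42.3%, 48.8%, 90.3% and 18, and of at most 0.01 gave 79, 54, 41.8%, 48.5%, 84.8% and 22. With at least 20 IP reads per entry there were 1253 windows with a median GC of 52.1% and 15 input reads. The cause of these shifts was not tested beyond the stricter choice itself. Requiring 1 input read, joining by coordinates, merging adjoining windows (1744 stretches) and leaving out windows under 50 nucleotides moved none of the 6 measures by more than 1.5 times or past its interval. Leaving out 1 list at a time gave 358 (RNPS1) to 1795 windows (GRB2), 239 to 940 genes, 29.6% (MBNL2) to 52.8% coding (RBM10), a median GC of 48.8% to 50.8%, 92.3% to 96.4% for the most frequent pair (undefined without CPSF6 or RNPS1), and 11 to 16 input reads. Coding sequence was the largest class in all 18 settings. Of 348 other values, 152 stayed within these bounds.

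No paired analysis was possible because the authors' lists give reads summed over replicates and, of the 2 replicates' enrichments, only the lower and the higher, without saying which replicate each is; so leaving out a replicate was not run. A window's absence from a list does not tell lack of binding from thin coverage. Counts per gene and shares per protein moved too, and are given beside the main values.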

Other observations

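Mitochondrial RNAs, which are made and kept inside mitochondria, held 10 of their 103 windows (9.71%), the highest share of any chromosome, against 0.410% on chromosome 1. The MT-RNR2 window at chrM:3012-3109, in the 16S ribosomal RNA, had the most IP reads of the 1881 windows, 238107 over 44126 input reads. Its log2 enrichment was 3.83 in RNPS1, 3.62 in EIF4B, 3.42 in CPSF6, 1.52 in LGALS3 and 0.78 in RBM22. The mRNAs MT-CO1, MT-CO2, MT-ND3, MT-ND4L, MT-ND5 and MT-CYB held the other 7 windows, 3 of them over start codons (MT-CO2, MT-ND4L and MT-CYB). All 10 windows were in the EIF4B and RNPS1 lists, and none was in GRB2. Over all 1881 windows these lists held 93.2%, 95.9% and 6.17%, so the 10 were close to the rest in this.

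Of the 14 windows in small RNAs, pri-miRNAs and pseudogenes, 3 were U2 snRNA pseudogenes. RNU2-4P (chr17:43387322-43387417) had 27897 IP and 5018 input reads, RNU2-6P (chr13:46374496-46374590) 1254 and 229, and RNU2-59P (chr10:101364940-101365035) 738 and 69. CPSF5, CPSF6, RBM10, RBM22 and RNPS1 were in all 3, against 49.8%, 95.3%, 32.4%, 40.8% and 95.9% of the 1881 windows. MBNL2 and GRB2 were in none, against 84.4% and 6.17%. U2 is a core RNA of the spliceosome, and reads of the gene and its pseudogenes cannot be told apart here.

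CACUL1 had a window next to a 5′ splice site (chr10:118754296-118754395) without CPSF6 and EIF4B: 3.66 in RNPS1, 3.31 in RBM10, 3.05 in RBM22, 2.67 in GRB2 and 2.51 in MBNL2, on 12 to 42 IP reads and 5 input reads in all. Only ITPR2, TTC3 and this window had 5 or fewer input reads over all their lists.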
